A study of Mus musculus with 3 samples.

Results

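The GIMAP genes encode GTPases of immunity-associated proteins, small GTP-binding proteins of vertebrates. The 8 mouse members Gimap1, Gimap3, Gimap4, Gimap5, Gimap6, Gimap7, Gimap8 and Gimap9 were taken by symbol from a count table of 48709 genes, and each symbol matched 1 row. The table holds 3 RNA-seq libraries of cells sorted from the lungs of mice with a CreERT2 transgene under smooth muscle actin control and the red fluorescent reporter tdTomato, all in 1 wild type (WT) group labelled as lung smooth muscle cells. Mice of 8 weeks received tamoxifen, which switches CreERT2 on, at 75 mg/kg by injection on each of 10 days, and lungs were digested and sorted 2 months later. There was no second genotype, treatment or time, so the results are levels, their order and their spread over libraries. Whether the libraries are from different mice is not stated, nor is the gate of the sort, and p-values then measure only the spread between these libraries, which may be technical.

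GIMAP proteins carry a guanine nucleotide-binding domain known as AIG1, and their genes lie next to each other in mammalian genomes. They are best known from lymphocytes, where they act in survival and development: loss of Gimap5 leaves rats and mice short of T cells. Members are also found in endothelium. Both kinds of cell are abundant in the lung.

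The nucleotide-binding loop shows what the members share in sequence. In GTPases this loop, called G1, holds a glycine, any 4 residues, and then glycine, lysine and serine or threonine. The search used the longest coding transcript of each member in GENCODE release M21 (mouse GRCm38) and found the loop once in 7 members and 3 times in Gimap8, the member with 3 GTPase domains. The 24 coding bases of each loop are shown because every member carries it, as other GTPases do. Capitals mark the codon of the first glycine and the closing codons of glycine, lysine and serine.

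Gimap1: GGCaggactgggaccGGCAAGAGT
Gimap3: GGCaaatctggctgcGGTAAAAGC
Gimap4: GGAaaaactggagcaGGAAAGAGT
Gimap5: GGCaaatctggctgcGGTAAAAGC
Gimap6: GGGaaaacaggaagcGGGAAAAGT
Gimap7: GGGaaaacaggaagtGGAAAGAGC
Gimap8, first domain: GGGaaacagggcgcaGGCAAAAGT
Gimap8, middle domain: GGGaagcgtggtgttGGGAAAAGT
Gimap8, last domain: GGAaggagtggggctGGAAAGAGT
Gimap9: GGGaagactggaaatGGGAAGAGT

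The loops of Gimap3 and Gimap5 were identical in all 24 bases. Over their whole coding sequences these 2 genes matched at 90.4% of 895 aligned bases, whereas the other 20 pairs among the 7 single-loop members matched at 55.8% to 67.9%. The longest identical run of Gimap3 and Gimap5 coding sequence was 140 bases, against at most 17 bases in those 20 pairs. It is shown because a read that lies inside it cannot be assigned to either gene by its sequence.

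Gimap3 and Gimap5: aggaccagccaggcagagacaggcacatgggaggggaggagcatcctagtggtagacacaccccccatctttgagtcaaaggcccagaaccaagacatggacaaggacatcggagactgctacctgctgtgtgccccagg

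Of the 50-base words in Gimap3 transcripts, 7.52% also occurred in Gimap5 transcripts, and 4.53% of Gimap5 words occurred in Gimap3. The sources used here do not say how reads that match several genes were counted, so the levels of these 2 genes are uncertain.

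The libraries had 16877297 to 18896263 counts, and 3 counts, the upper limit for a gene without reads, came to 0.159 to 0.178 CPM (counts per 1000000 counts of the library). The label was set against marker lists for each cell type. Of 15 smooth muscle genes 7 reached a mean of 10 CPM and 0 reached 100, and calponin, Cnn1, had 0, 7 and 5 counts in libraries 1, 2 and 3. All 20 T cell genes, 15 of 16 B cell genes, 15 of 15 natural killer (NK) cell genes and 16 of 20 endothelial genes reached 10 CPM. The same level was reached by 10 of 12 fibroblast, 9 of 12 alveolar epithelial and 7 of 15 myeloid genes. Of all 22005 nuclear protein-coding genes 35.8% reached it. The RNA was thus not that of smooth muscle alone. In these bulk libraries, fewer cells of a type and less RNA per cell cannot be told apart.

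All 8 members were expressed in each of the 3 libraries. Together they had 22785, 24779 and 24308 counts, or 1206, 1349.9 and 1440.3 CPM, in libraries 1, 2 and 3. The mean was 1332 ± 118 CPM (SD, n = 3). As a share of all counts this was 0.121% (95% Wilson interval 0.119 to 0.122%), 0.135% (0.133 to 0.137%) and 0.144% (0.142 to 0.146%), with intervals for counting error only. The intervals do not overlap, so the libraries differed beyond counting error on this scale. Every member passed a mean of 10 CPM and 4 of 8 passed 100, whereas 35.8% of 22005 nuclear protein-coding genes passed 10 and 5.89% passed 100. Of the family's counts, 73.7% belonged to Gimap6, Gimap4 and Gimap3.

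Gimap6, whose product takes part in autophagy (ENSMUSG00000047867, chromosome 6, 48701582 to 48708225), had 349, 431 and 443 CPM in libraries 1, 2 and 3. Library 1 was low and the other two were close to each other. The mean of 408 ± 51.5 CPM (SD, n = 3) was the highest of the family before any correction for length. Gimap4, a regulator of T cell death (ENSMUSG00000054435, chromosome 6, 48684549 to 48692060), had 286, 276 and 313 CPM, with a mean of 292 ± 19.1. Here library 2 was the lowest. Gimap3 (ENSMUSG00000039264, chromosome 6, 48764464 to 48770851) had 256, 287 and 304 CPM and a mean of 282 ± 24.6. It is the close relative of Gimap5 seen in the sequences above, and its level lay well above that of Gimap5 described next.

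Gimap5, which keeps T cells alive in the periphery (ENSMUSG00000043505, chromosome 6, 48746197 to 48754210), had 72.7, 73.5 and 76.7 CPM, with a mean of 74.3 ± 2.09 (SD, n = 3). Within each library the ratio of Gimap3 to Gimap5, per kilobase of exon, was 2.50, 2.65 and 2.67 on the log2 scale. Gimap3 was the higher gene in each library. The gap was narrower with the median transcript length, where Gimap3 had 137 ± 11.9 and Gimap5 58.1 ± 1.63 CPM per kilobase. Gimap8 (ENSMUSG00000064262, chromosome 6, 48647234 to 48660875) had 121, 149 and 169.6 CPM and a mean of 147 ± 24.4. It spread more widely over the libraries than Gimap5 did, with library 1 again the lowest.

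The lower members were Gimap9, Gimap1 and Gimap7. Gimap9 (ENSMUSG00000051124, chromosome 6, 48676129 to 48679114) had 56.0, 54.4 and 55.3 CPM, with a mean of 55.3 ± 0.840 (SD, n = 3). Gimap1, required for mature T and B cells (ENSMUSG00000090019, chromosome 6, 48739054 to 48743795), had 37.6, 51.3 and 50.2 CPM and a mean of 46.4 ± 7.58. Gimap7, which speeds up GTP hydrolysis when it forms dimers (ENSMUSG00000043931, chromosome 6, 48718621 to 48724636), had 27.8, 27.0 and 28.1 CPM and a mean of 27.6 ± 0.573. On this scale the libraries lay close together in Gimap7 and Gimap9, and Gimap1 was low in library 1. With TMM sizes Gimap9 had 59.0, 55.3 and 51.7 CPM and Gimap7 had 29.2, 27.5 and 26.3, both highest in library 1. The lowest single count in the family was 475, for Gimap7 in library 3, so no member was near the limit of detection.

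**Figure D1:**
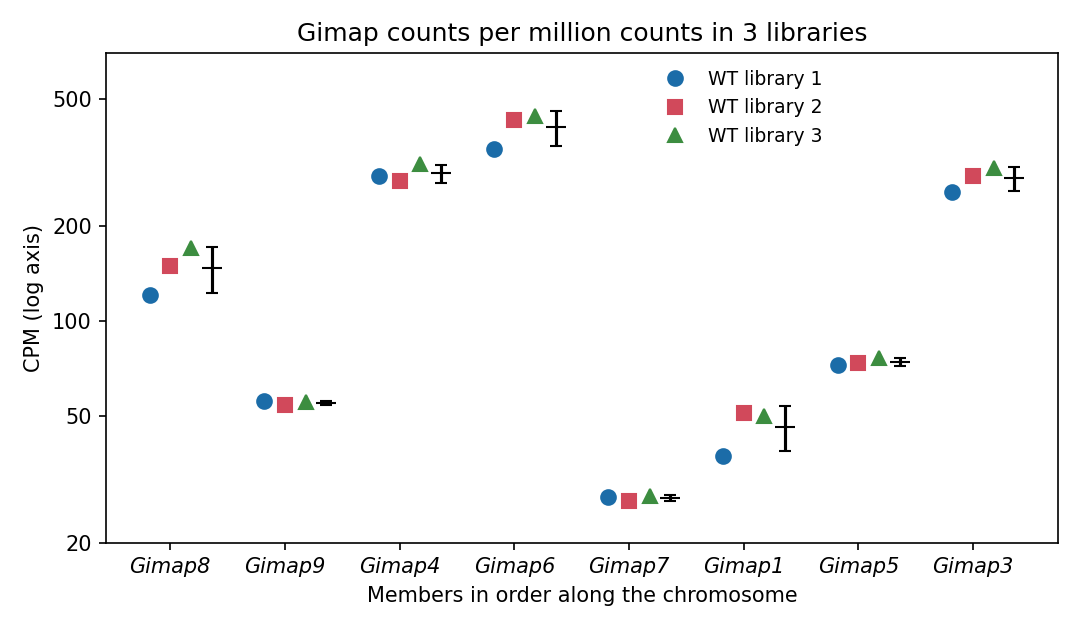
CPM (log axis) of the 8 Gimap genes in order along chromosome 6, with 1 symbol per library and the mean ± SD of 3 libraries in black. Means run from 27.6 CPM for Gimap7 to 408 CPM for Gimap6, and library 1 is lowest for Gimap1, Gimap3, Gimap5, Gimap6 and Gimap8.

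Levels of different genes were compared per kilobase of exon, within each library. In CPM per kilobase of exon, Gimap4 led at 159 ± 10.4 (SD, n = 3), followed by Gimap6 at 117 ± 14.7 and Gimap3 at 109.5 ± 9.54. These 3 genes ranked 126, 170 and 176 of 21839 nuclear protein-coding genes with a length. A gap followed, with Gimap8 at 39.6 ± 6.60 and Gimap9 at 33.6 ± 0.512. Gimap5 at 17.9 ± 0.503, Gimap1 at 15.1 ± 2.47 and Gimap7 at 11.9 ± 0.247 made up the lower end. The highest member thus stood 13.4-fold above the lowest. The family's median was 5.19 on the scale of log2(CPM per kilobase + 0.1), and that of all nuclear protein-coding genes was -0.06.

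The order held well over libraries. Of 28 pairs, 27 had the same order in each of the 3 libraries and a mean log2 ratio larger than its SD. The exception was Gimap8 and Gimap9, neighbours in the order, with log2 ratios of -0.06, 0.28 and 0.44 and a mean of 0.22 ± 0.26 (SD, n = 3). Among the other neighbours, Gimap6 exceeded Gimap3 by 0.09 ± 0.07, Gimap5 exceeded Gimap1 by 0.26 ± 0.23 and Gimap1 exceeded Gimap7 by 0.33 ± 0.26. The rule takes no account of counting error. In library 1 the log2 ratio was only 0.007 for Gimap6 to Gimap3 and 0.035 for Gimap1 to Gimap7, so that library hardly separates these pairs. The widest step between neighbours was that from Gimap3 to Gimap8, 1.48 ± 0.12. No test was made of these ratios, since an exact sign-flip permutation test over 3 libraries cannot give a two-sided p below 0.25.

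Part of this order depends on the length used. Union exon lengths ran from 1642 bases in Gimap9 to 4149 in Gimap5. With the median transcript length Gimap6 led at 404 ± 51.0 and Gimap4 followed at 296 ± 19.4 (SD, n = 3). The log2 ratio of Gimap6 to Gimap3 moved most among neighbours, from 0.09 with the union of exons to 1.55 with the median transcript length and 0.51 with the coding length. With the coding length Gimap6 led at 445 ± 56.2, ahead of Gimap3 at 313 ± 27.2 and Gimap4 at 297 ± 19.4. Gimap3, Gimap4 and Gimap6 were the top 3 and Gimap7 the lowest with each of the 4 lengths tried, while the order among the others changed.

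**Figure D2:**
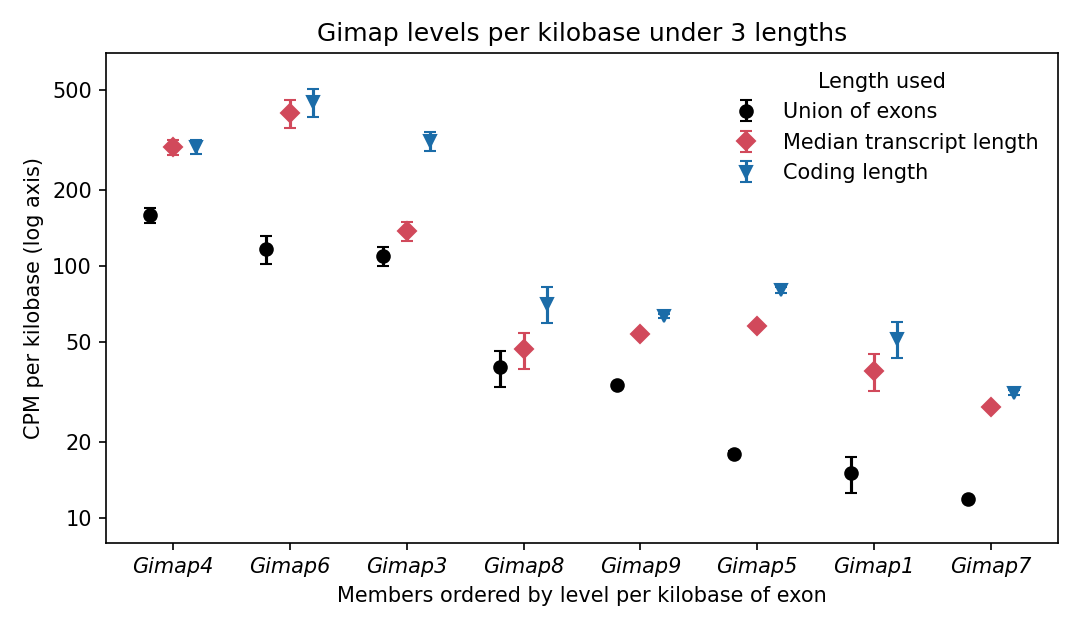
Mean ± SD over 3 libraries of CPM per kilobase (log axis) for each Gimap gene, with black circles for the union of exons, red diamonds for the median transcript length and blue triangles for the coding length. The 3 genes on the left lie above the other 5 with each length, and the first place passes from Gimap4 to Gimap6.

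The cluster takes up 124 kb of chromosome 6, from 48647234 to 48770851. Inside the span the table lists 13 genes, and the 8 members held 97.9% of their summed mean CPM. The other 5 were low, the highest being Gimap1os, a transcript on the strand opposite to Gimap1, at 16.6 ± 3.46 CPM (SD, n = 3). Gm44226 and 4833403J16Rik, long noncoding RNAs between Gimap5 and Gimap3, had 9.76 ± 0.225 and 2.06 ± 0.140 CPM. Gm44262, a pseudogene between Gimap8 and Gimap9, had 0 counts in the 3 libraries.

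Of the 10 protein-coding genes within 100 kb on either side, Gm5111, Gm45021 and Gm44965 had no count. Repin1, Lrrc61, Zfp775 and AI854703 had means of 5.98, 5.03, 2.73 and 1.87 CPM, and the chemoattractant Rarres2 had 12.4 ± 3.83 CPM. On the side of Gimap3, the membrane protein genes Tmem176b and Tmem176a had 45.8 ± 4.76 and 28.3 ± 1.61 CPM. These were the 2 genes of the flanks that exceeded Gimap7, the lowest member, in CPM. Per kilobase of exon Tmem176b had 19.3 ± 2.01 and Tmem176a 7.44 ± 0.424, against 11.9 ± 0.247 for Gimap7.

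**Figure D3:**
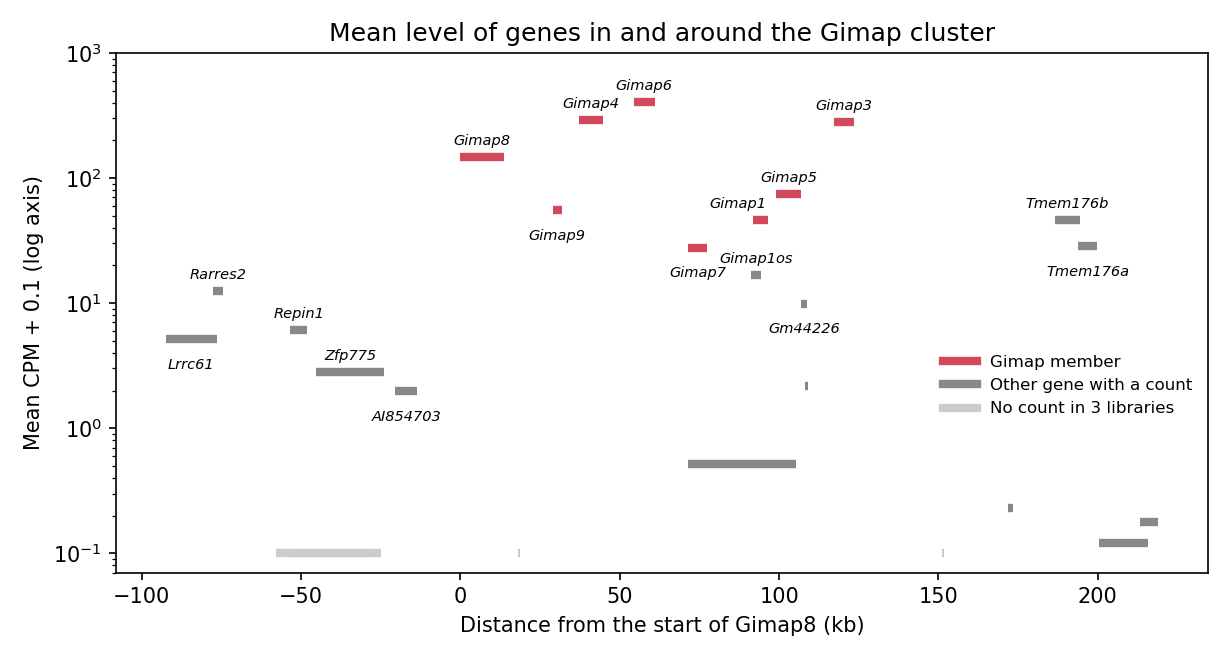
Mean CPM + 0.1 over 3 libraries (log axis) of every gene in the table within 100 kb of the Gimap cluster, drawn to scale by distance in kb from the start of Gimap8. Members are red, other genes with a count dark grey, and genes without a count light grey. The 8 members lie between 27.6 and 408 CPM, and outside the cluster 2 genes, Tmem176b and Tmem176a, exceed Gimap7.

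Gimap1, Gimap5 and Gimap7 overlap other annotated genes, which bears on their counts. Gm28053, a protein-coding gene model that runs through the 3 genes, shares 198 exon bases with Gimap1, 153 with Gimap5 and 81 with Gimap7 on the same strand. It had 4, 5 and 13 counts in libraries 1, 2 and 3. Gimap1os covers 1107 exon bases of Gimap1 of its 3073, on the opposite strand. Reads inside such bases may have been given to either gene or to neither, since the sources used here state neither the strand setting nor the treatment of overlaps. When only exon bases free of other genes were used as the length, Gimap1 rose to 23.6 ± 3.86 CPM per kilobase, above Gimap5 at 18.6 ± 0.522 (SD, n = 3). Gimap1os and Gimap1 did not share a profile: Gimap1os had 20.4, 13.7 and 15.6 CPM in libraries 1, 2 and 3 and was highest where Gimap1 was lowest.

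The promoters of the member with the most counts and the one with the fewest are shown, as sequences that lie at opposite ends of the family's range. Each runs from 250 bases before to 50 after the start of transcription, from RefSeq (GRCm38.p6). Windows were found for 8 of 8 members, with 2 for Gimap8. Capitals mark matches on either strand to GGAAGT (reverse complement ACTTCC), a motif of ETS factors, and TGTGGT (reverse complement ACCACA), a motif of RUNX factors, both known from lymphoid genes.

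Gimap6, chr6:48708195-48708494, minus strand: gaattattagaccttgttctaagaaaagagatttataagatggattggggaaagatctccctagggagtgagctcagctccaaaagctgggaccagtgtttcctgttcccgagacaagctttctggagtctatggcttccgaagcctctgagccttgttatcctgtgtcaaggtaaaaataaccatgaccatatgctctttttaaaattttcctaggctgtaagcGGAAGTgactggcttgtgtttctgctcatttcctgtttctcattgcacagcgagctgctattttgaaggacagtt
Gimap7, chr6:48718371-48718670, plus strand: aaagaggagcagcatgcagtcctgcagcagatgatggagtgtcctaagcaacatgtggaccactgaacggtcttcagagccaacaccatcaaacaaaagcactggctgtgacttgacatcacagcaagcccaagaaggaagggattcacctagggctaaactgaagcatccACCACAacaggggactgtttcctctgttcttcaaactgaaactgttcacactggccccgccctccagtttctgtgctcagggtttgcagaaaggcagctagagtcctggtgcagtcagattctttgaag

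The Gimap6 window held the ETS letters once, 25 bases before the start, and the Gimap7 window held the RUNX letters once, 79 bases before it. The ETS letters occurred in 4 of 9 windows of the family and in 23.8% of all 32851 windows of this length, and the RUNX letters in 3 of 9 and 16.8%. Other motifs were searched too. The letters of Ikaros were in 1 of 9 windows beside 25.6%, of E proteins in 1 beside 20.2% and of TCF/LEF factors in 2 beside 16.0%. Those of FOXO factors were in 1 beside 3.65%, of IRF factors in 0 beside 3.44% and of the TATA box in 1 beside 13.6%. The ETS matches were in Gimap1, Gimap5, Gimap6 and Gimap9 and the RUNX matches in Gimap1, Gimap4 and Gimap7. Matches occurred in high and in low members. A match is a description of the letters, not a binding site.

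Spread over libraries was tested for each gene with a chi-square test of its counts against library sizes scaled by the TMM method, with Benjamini-Hochberg adjustment over 23317 genes. Differences beyond counting error were found for 6 of 8 members, namely Gimap1, Gimap3, Gimap4, Gimap6, Gimap8 and Gimap9. They were also found for 70.0% of all genes tested, and for 82.1% of the 4383 nuclear protein-coding genes with a mean CPM between those of Gimap7 and Gimap6, so the share among members was near the background. Gimap5 and Gimap7 did not pass, with adjusted p of 0.263 and 0.281 in the same chi-square test. The call of Gimap9 was lost when sizes were library totals or nuclear protein-coding counts. Without library 1 only Gimap6 passed, 1 of 8, beside 38.2% of all genes, whereas 5 passed without library 2, beside 53.6% of all genes, and 5 without library 3, beside 56.8%.

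In size these differences were small. With the TMM sizes of the test, the highest library exceeded the lowest by 1.07-fold in Gimap4 and Gimap5, 1.09-fold in Gimap3, 1.11-fold in Gimap7, 1.14-fold in Gimap9, 1.196-fold in Gimap6, 1.24-fold in Gimap8 and 1.32-fold in Gimap1. With library totals the ratios ran from 1.03-fold in Gimap9, which was then not called, to 1.40-fold in Gimap8. The median over the 8 members with library totals was 1.16-fold, against 1.26-fold over the 4383 genes of similar CPM. With TMM scaling the medians were 1.13-fold and 1.23-fold. The coefficient of variation had a median of 7.63% over members and 12.0% over those genes. Relative spread per gene in the model of edgeR was 13.9% to 17.5% for the members, below its common value of 26.6% over 16614 genes, and had a median of 16.1% over genes of similar CPM.

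The scaling sets which library is highest. Scaled by library totals, 5 members were lowest in library 1 and 6 were highest in library 3. Of 6369 genes outside the family with a mean of at least 20 CPM and a count in each library, 3422 were highest in library 3 on this scale. Such a background was not counted for library 1 or for the other scalings. With TMM factors, which were 0.951, 0.983 and 1.07 in libraries 1, 2 and 3, the family split evenly: Gimap1, Gimap3, Gimap6 and Gimap8 were lowest in library 1, and Gimap4, Gimap5, Gimap7 and Gimap9 were highest there. The same 2 sets came out with the size factors of DESeq2 and with the counts of nuclear protein-coding genes as the library size. In the second set, Gimap5 and Gimap7 did not differ between libraries beyond counting error, and the call of Gimap9 depended on the scaling. The family's summed level was then 1269, 1374 and 1345 CPM with TMM factors, a range of 1.08-fold in place of 1.19-fold. Genes annotated as microRNAs took 15.1%, 12.9% and 8.36% of the counts of libraries 1, 2 and 3, and their part in the difference between scalings was not tested.

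Marker genes of several cell types ranged more widely over the libraries than the family did. Summed over marker lists, B cell genes had 992, 1594 and 2106 CPM in libraries 1, 2 and 3, and NK cell genes had 705, 839 and 1324. Both lists were lowest in library 1 and highest in library 3. Endothelial genes went another way, with 2008, 1044.5 and 1499 CPM, highest in library 1. T cell genes had 2371, 2408 and 1913 CPM, and smooth muscle genes 181, 226 and 198.

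As ratios of the highest to the lowest library, the sums ranged 2.12-fold for B cells, 1.88-fold for NK cells, 1.92-fold for endothelium and 1.26-fold for T cells, against 1.19-fold for the Gimap family. Lists of other cells ranged 2.10-fold for fibroblasts, 3.01-fold for myeloid cells and 4.21-fold for alveolar epithelium. By library totals the sum of the family was lowest in library 1, as the B cell, NK cell, fibroblast and smooth muscle sums were. The endothelial sum was highest there. Gimap1, Gimap3, Gimap6 and Gimap8 were singly lowest in library 1 under each of the 4 scalings. Gimap4, Gimap5, Gimap7 and Gimap9 were highest in library 1 under 3 of the 4, but Gimap5 and Gimap7 did not pass the chi-square test. The endothelial, myeloid and alveolar epithelial sums were highest in library 1 by library totals, a scale on which only Gimap9 of these members was. Under the 3 scalings that put these members highest in library 1, the T cell sum was highest there as well. By library totals the T cell sum was highest in library 2. On the scale of library totals the family sum was highest in library 3, as the B cell, NK cell and fibroblast sums were. The fibroblast sum was 921, 1931 and 1934 CPM in libraries 1, 2 and 3. The T cell sum was lowest in library 3. With 3 libraries no correlation is given, and which cells the Gimap RNA came from was not tested.

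**Figure D4:**
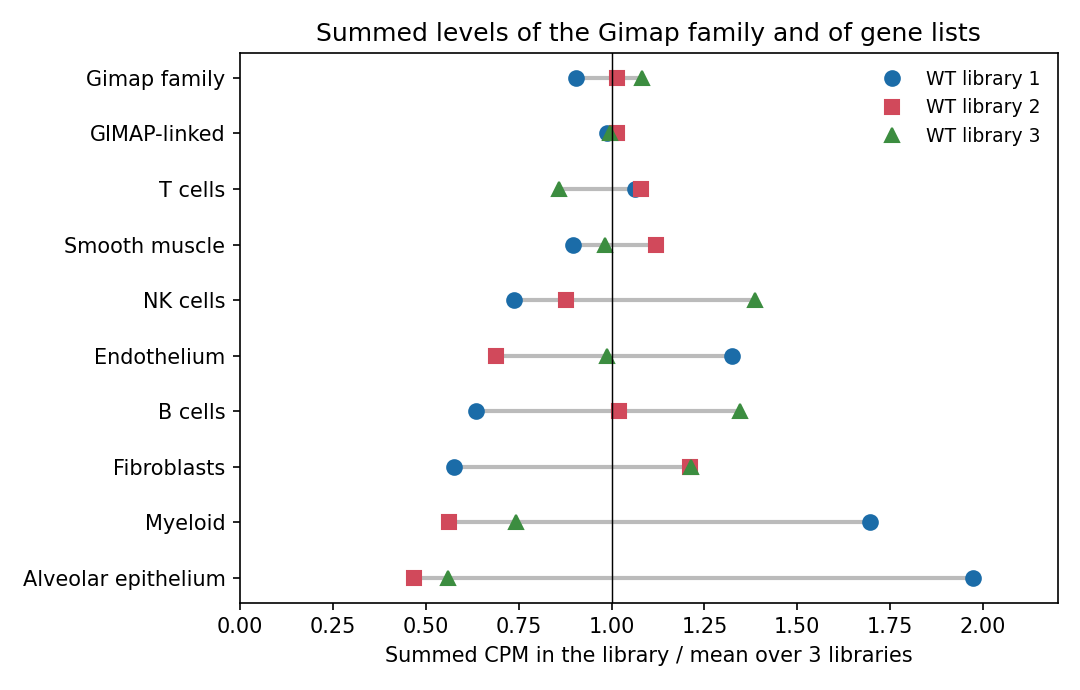
Summed CPM of the Gimap family and of 9 gene lists in each library, divided by the mean of the 3 libraries, with 1 symbol per library and a grey bar from lowest to highest. The family spans 1.19-fold between its lowest and highest library, against 2.12-fold for B cells, 1.92-fold for endothelium and 4.21-fold for alveolar epithelium.

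Per kilobase of exon, the family's median lay above that of each lymphocyte list, by a mean margin that was smallest for T cells. It lay further above those of endothelium and smooth muscle. The family's median was 5.07, 5.20 and 5.30 in libraries 1, 2 and 3 as log2(CPM per kilobase + 0.1). Within libraries it exceeded the T cell median by 0.16, 0.16 and 0.71, a mean of 0.35 ± 0.32 (SD, n = 3). It exceeded the NK cell median by 0.58 ± 0.46 and the B cell median by 0.93 ± 0.46. In each of the 3 libraries the Gimap median was the higher one, but the margins over T and NK cell genes were little larger than their SD. Over NK cell genes the margins were 0.89, 0.80 and 0.04 in libraries 1, 2 and 3, so library 3 hardly separates these medians. In CPM, without regard to length, the margins were 0.043 ± 0.244 over the T cell list and 0.20 ± 0.415 over the B cell list.

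The distance from the other cell types was wider. The family's median exceeded that of the endothelial list by 1.43, 2.86 and 2.47, a mean of 2.25 ± 0.74 (SD, n = 3), or 4.77-fold. It exceeded that of the smooth muscle list by 3.73, 3.50 and 3.71, a mean of 3.65 ± 0.13, or 12.5-fold. Among the leading markers, the B cell receptor subunit Cd79a had 119 ± 41.1 CPM per kilobase, the NK and T cell protease Gzma 242.5 ± 106, the endothelial cadherin Cdh5 41.9 ± 15.01 and smooth muscle myosin, Myh11, 3.20 ± 0.897. Gimap4, Gimap6 and Gimap3 lay above Cdh5 in mean level per kilobase and the other members below it, and the lowest member, Gimap7, lay above Myh11. Epas1, the highest of the endothelial list, had 81.6 ± 28.7, below Gimap4, Gimap6 and Gimap3. In the T cell list the highest was Trbc2 at 142 ± 12.3, above Gimap6 and Gimap3 but below Gimap4.

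**Figure D5:**
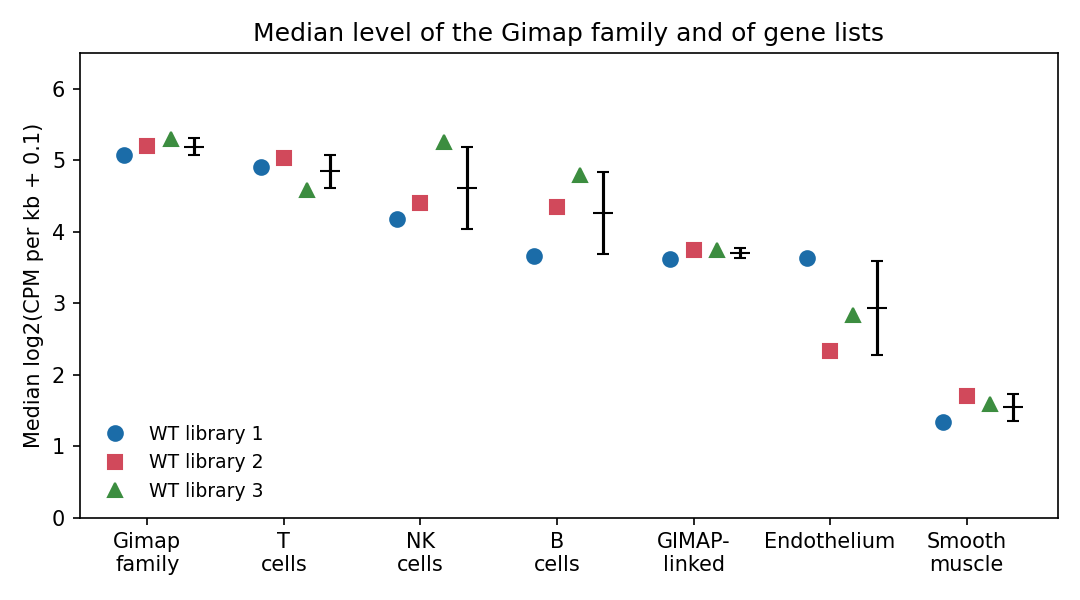
Median of log2(CPM per kilobase of exon + 0.1) over the members of each list in each library, with 1 symbol per library and the mean ± SD of 3 libraries in black. The Gimap median lies between 5.07 and 5.30, above the endothelial and smooth muscle medians in each library.

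A list of 30 genes tied to GIMAP proteins or to lymphocyte survival was set beside the family. Whether RNA of these genes came from the same cells as the Gimap RNA was not tested. A mean of 10 CPM was reached by 25 of the 30 and 100 CPM by 16, and their median of 3.70 ± 0.07 (SD, n = 3) per kilobase on the log2 scale lay below that of the family by 1.48 ± 0.06. Their summed CPM was 3455, 3547 and 3484 in libraries 1, 2 and 3, a range of 1.03-fold. With TMM factors the range was 1.12-fold, against 1.08-fold for the Gimap family. Counts varied between libraries beyond counting error for 23 of the 30 in the chi-square test, against the 70.0% of all genes.

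Survival genes of the BCL2 family were uneven. Mcl1, an inhibitor of apoptosis, had the most counts of the list, with 374, 408 and 442 CPM, or 119 ± 9.87 CPM per kilobase, close to Gimap6. Bcl2, another inhibitor, had 117, 120 and 129 CPM and 13.3 ± 0.665 per kilobase, and the inhibitor Bcl2l1 had 31.6, 18.4 and 22.0 CPM and 5.23 ± 1.49 per kilobase. Genes that promote apoptosis lay below Mcl1 and Bcl2 per kilobase, but Bcl2l11 lay above Bcl2l1: Bcl2l11 had 8.14 ± 1.86, Bax 4.73 ± 1.34, Bak1 4.14 ± 0.150 and Bad, the lowest gene of the list in CPM, 2.81 ± 0.280. Rats and mice without Gimap5 lose T cells by apoptosis, which is why these genes were listed.

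The list holds 9 genes of autophagy, the process in which Gimap6 takes part, and their levels ran from 2.29 CPM per kilobase in Atg7 to 51.3 in Sqstm1. The adaptor Sqstm1 had 148, 176 and 193 CPM and 51.3 ± 6.69 per kilobase. Gabarapl2, the autophagosome protein known to bind human GIMAP6, had a mean of 39.5 ± 4.21 CPM and 16.97 ± 1.81 per kilobase, and its relative Gabarap had 32.5 ± 4.71 per kilobase. Map1lc3b had 15.5 ± 2.28, Atg5 9.45 ± 2.03, Map1lc3a 7.95 ± 2.25, Gabarapl1 4.61 ± 1.11 and Atg7 2.29 ± 0.158, and Becn1 had a mean of 45.9 ± 2.91 CPM. Each of the 9 genes lay below Gimap6 per kilobase.

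Genes of lymphocyte identity and survival completed the list. Stk4, a kinase of T cell adhesion and survival, had 318, 350 and 311 CPM, with library 2 the highest. Klf2, a factor of quiescent T cells and of endothelium, had 279, 241 and 196 CPM and, at 129 ± 22.6 per kilobase, was above Mcl1 on that scale, and Il7r, the interleukin 7 receptor, had 294, 288 and 224. Both of these were lowest in library 3, where the T cell sum was lowest and the Gimap sum was not. Ikzf1, the factor Ikaros, had 50.3 ± 2.05 CPM per kilobase and Runx3 16.5 ± 0.773.

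Genes outside the family with the most similar course over the libraries were sought among 6369 genes with a mean of at least 20 CPM, by the Euclidean distance between log2 deviations from the mean over 3 libraries. The nearest 5 were Gm12696, Vars, Dnajb6, Nfatc3 and Gm8317, at distances of 0.00172 to 0.00745 from the summed Gimap profile. Nfatc3, a calcium-dependent factor of lymphocytes, had 203, 226 and 241 CPM, and Vars, the valyl-tRNA synthetase, 100.4, 112 and 120. With 3 libraries such closeness is common: 792 genes, or 12.4%, lay within a distance of 0.1.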

How the data were processed

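RNA of sorted mouse lung cells was sequenced as stranded total RNA libraries per the labels' protocols. The authors deposited raw read counts per gene, and the tools in the submitters' processing notes are the counter featureCounts 1.6.3, the aligner STAR 2.6.1d, Trimmomatic 0.38, DESeq2 1.18.1 and FastQC, with no settings. The notes list human builds, hg38 and GRCh38, but the gene IDs are mouse and the coordinates of 8 of 8 members equal those of GENCODE M21 (GRCm38). Count columns named as controls 1 to 3 were assigned to the WT titles by number, WT being the only group. Nothing says that the libraries came from separate animals. The members and lists were chosen with earlier results of these data known.

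CPM used library totals, and levels per kilobase the union of exons. TMM factors and dispersions came from edgeR 4.0.16 and alternative size factors from DESeq2 1.42.0. The chi-square test (SciPy 1.17.1) took genes with at least 10 counts and an adjusted p under 0.05, and was tested on simulated data. Pairs of libraries differed beyond counting error at 38.2% to 56.8% of genes, so none was a copy of another. The named genes are the members, the genes of the cluster, protein-coding genes within 100 kb, the 3 highest and the lowest gene of each list, and the 5 genes of nearest profile; not all are reported here, and the other list genes named were chosen after their values were seen. Alternatives in scaling, length, pseudocount, filter and libraries were tried. No protein sequences were used here.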

Additional observations from a re-analysis of the deposited data

How the results depend on the processing

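The summed Gimap level stayed within its SD of 1332 CPM under 3 other scalings and ranged from 1278 to 1395 CPM without 1 library. Its ratio of highest to lowest library fell from 1.19 to 1.08 with TMM factors, 1.08 with DESeq2 size factors and 1.08 with nuclear protein-coding counts, the last chosen after seeing the data, and ranged from 1.07 to 1.19 without 1 library. Pairs of members beyond their spread numbered 24 to 28 of 28 without 1 library, and 2 of 3 pairs when only Gimap4, Gimap8 and Gimap9, which share no 50-base word with another gene, were kept. Fewer pairs were then compared. With the median transcript length the log2 ratio turned to -0.44 for Gimap4 to Gimap6, -0.22 for Gimap8 to Gimap9 and -0.11 for Gimap9 to Gimap5. The ratio of Gimap6 to Gimap3 rose from 0.09 to 1.55 with the median transcript length and 0.51 with the coding length. With the coding length the ratio turned to -0.58 for Gimap4 to Gimap6 and -0.35 for Gimap9 to Gimap5. With exon bases free of other genes, a length chosen after seeing the data, that of Gimap5 to Gimap1 was -0.33.

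Members that varied beyond counting error numbered 1 to 5 without 1 library, the lowest being without library 1, where 38.2% of all genes passed. By edgeR dispersion 0 members exceeded the common value, which 47.7% of all genes did, and this is no test. With CPM in place of CPM per kilobase the median difference was 0.043 ± 0.244 (SD, n = 3) from the T cell list, 0.20 ± 0.415 from the B cell list and 1.46 ± 0.267 from the NK cell list, so the first 2 did not exceed their SD. That from the smooth muscle list was 3.29 with a pseudocount of 1, 4.35 with means, 3.52 with CPM and 4.38 with genes that share no words. Where no cause is given, the cause was not tested. Without 1 library the differences ranged from 0.16 to 0.44 for T cells, 0.68 to 1.13 for B cells, 0.42 to 0.84 for NK cells, 1.95 to 2.67 for endothelium and 3.60 to 3.72 for smooth muscle. Of 105 further values of single members and ratios, 91 moved by less than their SD, 8 moved by more and 6 changed sign. All that moved by more or changed sign were ratios of neighbouring members under another length. Leaving out 1 of 3 libraries cannot move a mean by as much as its SD, so those values say nothing about robustness. No paired analysis was possible because the series has 1 group. At these depths no member was near the limit of detection.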
